A study of Zea mays with 192 samples.

Results

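GFP_bHLH97 and GFP_bHLH103 are the rows of the deposited table that count transcripts of introduced green fluorescent protein (GFP) constructs of the maize factors bHLH97 and bHLH103. They were taken by name and are 2 of 32 construct rows, in a table that also holds 80 rows for PHAS loci and 41187 rows in all. Both belong, by where their unique molecular identifiers (UMIs, one per captured RNA molecule) fell, to the pool of pre-meiotic transcription factors. The question addressed is how strongly and in which cells each construct was read, which other constructs shared its cells, and which gene models and PHAS loci went with it.

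The samples are single protoplasts, 96 that had received a pool of pre-meiotic transcription factor (TF) constructs and 96 that had received a pool of bHLH constructs. They are called the pre-meiotic TF pool and the bHLH pool. All came from leaves of B73 maize, an inbred line of wild-type genotype, grown at 25 °C in the dark and taken 10 to 12 days after germination from more than 10 etiolated seedlings per isolation. RNA was read with CEL-seq2, which counts the 3′ ends of polyadenylated RNA of each cell. The labels name no separate transfections and no untransfected protoplasts were analysed here, so each pool is 1 sample, cells are not replicates, and no p-value is given.

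Basic helix-loop-helix (bHLH) factors pair through the helix-loop-helix part and bind DNA through the basic part, usually at E-box sequences. In anthers, members of this family such as Ms23 and Ms32 control the development of the tapetum, the cell layer that feeds the developing pollen. PHAS loci are transcribed into long precursors that are cut at regular steps into small RNAs, of 21 nucleotides mainly before meiosis and of 24 nucleotides mainly during it, and leaves normally make few of either.

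The pre-meiotic TF pool had 953 to 88243 UMIs per cell (median 26488), and the bHLH pool 4699 to 148894 (median 28577.5). Levels are given as TPM, the UMIs per 1000000 UMIs of the cell, with no length term, and a cell with 1 UMI on a row therefore has a high TPM when it is shallow. A single unnamed gene model, GRMZM2G028910, took a median of 29.7% of the UMIs of cells with GFP_bHLH97 and 38.6% of those without it. At least 1 of 4 mesophyll markers, ppdk1 and pep1 among them, had a UMI in 77 of the 96 pre-meiotic TF cells, with a summed level from 0 to 1137 TPM and a median of 85.3 TPM. Most of this was ppdk1, with 321 UMIs in 73 cells, while the other markers were each in 11 to 16 cells of that pool. The bundle sheath marker me3 (GRMZM2G085019) had 41 UMIs in 24 cells of that pool and a mean of 17.5 TPM. The tapetum genes ms26 and ms8 had no UMI there. Intervals are exact 95% intervals that cover counting error only.

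GFP_bHLH97 was the most abundant construct row of the pre-meiotic TF pool and was not read in the bHLH pool. It had 256 UMIs in that pool (Poisson interval 226 to 289) and was found in 65 of its 96 cells, or 67.7% (Clopper-Pearson interval 57.4% to 76.9%). Its level ran from 0 to 721 TPM with a median of 48.6 TPM and a mean of 88.5 ± 117 TPM (SD over 96 cells of 1 sample). In the bHLH pool it had 0 UMIs in 96 cells, which allows a UMI in up to 3.12% of cells (3 counts of the total). Against a floor of 3 UMIs over the bHLH pool (0.916 UMIs per 1000000), the 84.5 UMIs per 1000000 of the pre-meiotic TF pool were at least 92.2-fold higher.

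GFP_bHLH103 came next in rank by UMIs and by cells. It had 190 UMIs (164 to 219) in 52 of 96 cells, or 54.2% (43.7% to 64.4%), and its level ran from 0 to 771 TPM with a median of 25.0 TPM and a mean of 67.3 ± 110 TPM (SD over 96 cells of 1 sample). It was read at 62.7 UMIs per 1000000 in the pre-meiotic TF pool against 1.53 in the bHLH pool, where 5 cells had 1 UMI each, a ratio of 41.1 (17.3 to 128). The next row in rank, GFP_OFP9, had 103 UMIs in 51 cells and a mean of 41.8 TPM. GFP_bHLH97 and GFP_bHLH103 together held 446 of the 1277 construct UMIs of their pool, or 34.9% (32.3% to 37.6%). Their ratio over the pool, GFP_bHLH97 over GFP_bHLH103, was 1.35 (1.11 to 1.63). Construct rows may share UMIs. In the bHLH pool GFP_NAC29, GFP_OCL4 and GFP_ZFL1 each had 9 UMIs in 8 cells and the same mean of 2.53 TPM. GFP_EREB50 and GFP_EREB69 each had 14 UMIs in 13 cells. The 3 bHLH cells with GFP_OFP9 had 21.5, 32.6 and 34.8 TPM of it, levels that GFP_bHLH103 also had there. Whether a UMI was counted on more than 1 row was not tested, so the total of 1277 may count some repeatedly.

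**Figure D1:**
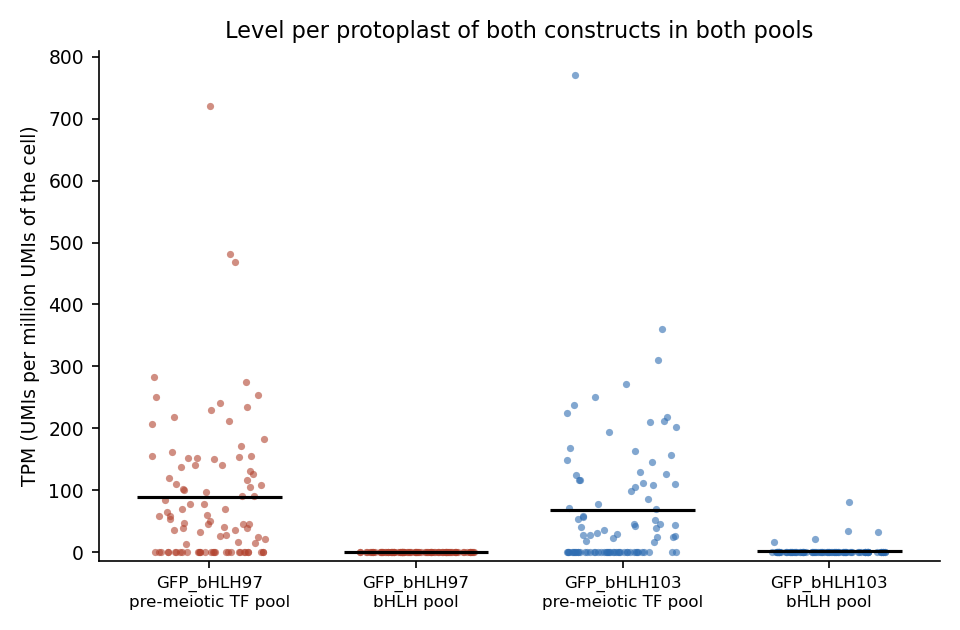
Each point is 1 protoplast, the vertical axis is the level in TPM on a linear scale, and the line is the mean over 96 cells. In the pre-meiotic TF pool the points spread up to 721 TPM for GFP_bHLH97 and 771 TPM for GFP_bHLH103, while the bHLH pool shows none for GFP_bHLH97 and 5 cells above 0 for GFP_bHLH103.

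Within the pre-meiotic TF pool both constructs were spread unevenly over cells. GFP_bHLH97 had no UMI in 31 cells, 1 UMI in 20 and at least 2 in 45, of which 4 had 10 or more. The 10 cells with most UMIs of GFP_bHLH97 held 45.3% of them, and the highest count was 27 UMIs, in protoplast 51. GFP_bHLH103 had no UMI in 44 cells, 1 UMI in 19 and at least 2 in 33, and its 10 highest cells held 49.5%. The highest TPM of GFP_bHLH97 was not a high count: protoplast 46 had 2 UMIs among only 2774. That of GFP_bHLH103, in protoplast 75, rested on 16 UMIs.

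Detection followed depth, while the level did not. From the shallowest to the deepest tertile of the cells (32 each), GFP_bHLH97 was found in 16, 22 and 27 cells with mean levels of 86.9, 107 and 71.2 TPM. GFP_bHLH103 was found in 10, 21 and 21 cells with mean levels of 45.5, 101 and 55.2 TPM. When each cell was thinned at random to 5000 UMIs, which 10 of the pre-meiotic TF cells were too shallow for, GFP_bHLH97 was found in 29 of 86 cells (33.7%, 23.9% to 44.7%) and GFP_bHLH103 in 19 of 86 (22.1%, 13.9% to 32.3%). A cell without a UMI is therefore not a cell shown to lack the construct.

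The constructs often shared a cell in the full data: 44 cells had both, 21 had GFP_bHLH97 alone, 8 had GFP_bHLH103 alone and 23 had neither. GFP_bHLH103 was found in 67.7% (54.9% to 78.8%) of the 65 cells with GFP_bHLH97 and in 25.8% (11.9% to 44.6%) of the 31 without it. The share was higher with GFP_bHLH97 in each tertile of the cells by depth, but the intervals overlapped in each. It was 37.5% against 25.0% in the shallowest (6 of 16 cells against 4 of 16) and 81.8% against 30.0% in the middle. In the deepest it was 74.1% against 20.0%, and only 5 cells there lacked GFP_bHLH97. At an equal depth of 5000 UMIs, however, GFP_bHLH103 was in 24.1% of 29 cells with GFP_bHLH97 and in 21.1% of 57 without it, a difference of 3.09 points whose intervals overlap widely. A difference was thus not detectable at that depth.

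Where both were read, the balance between them varied from cell to cell. Of the 44 cells with both, 24 had more UMIs of GFP_bHLH97, 11 more of GFP_bHLH103 and 9 the same number. The share of the pair's UMIs on GFP_bHLH97 had a median of 56.3% over these cells and ran from 11.1% to 87.5%. Likeness, used throughout as the Spearman correlation of TPM over the 96 cells after the rank of total UMIs was regressed out of both ranks, was 0.39 between the constructs. It was 0.22 when the number of gene models detected in the cell was also regressed out, and 0.07 when the summed level of 16 gene models that mark the pool, described below, was. The cells are of 1 sample and their totals enter every TPM, so likeness is a description and not a test.

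**Figure D2:**
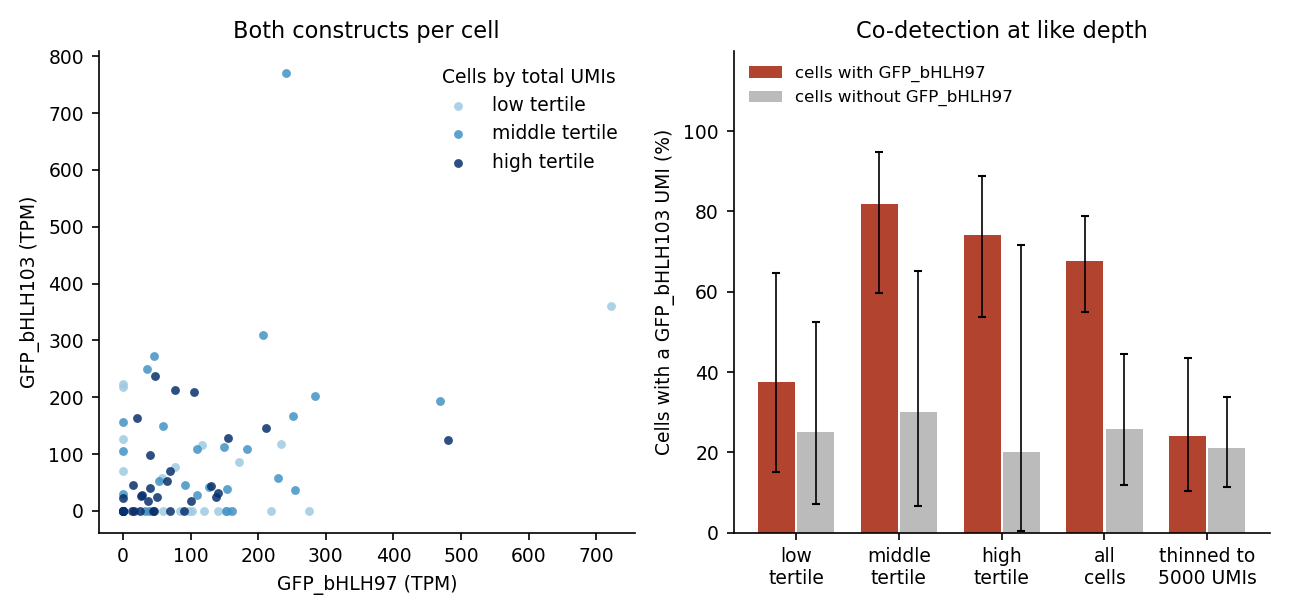
Left, each point is 1 cell of the pre-meiotic TF pool with its levels of GFP_bHLH97 and GFP_bHLH103 in TPM, shaded by depth tertile. Right, bars are the percent of cells with a GFP_bHLH103 UMI among cells with and without a GFP_bHLH97 UMI, with exact 95% intervals. The pairs of bars differ in the full data, with overlapping intervals within each tertile, and nearly meet (24.1% and 21.1%) after thinning.

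Cells in which the constructs were read differed from the other cells in more than the constructs. Cells with GFP_bHLH97 had a median of 5592 gene models detected, against 2181 in cells without it, and at 5000 UMIs a median of 1581 against 828. For GFP_bHLH103 the medians were 5644 and 2789.5 gene models, and 1603 and 1231 at 5000 UMIs. Likeness to the number of gene models detected was 0.56 for GFP_bHLH97 and 0.39 for GFP_bHLH103. The main counts and likenesses below are therefore also given with that number regressed out, a setting chosen after the values were seen.

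The other constructs went with both members. Of the 22 other construct rows found in at least 10 cells, all 22 were found in a higher share of the cells with GFP_bHLH97 than of those without it, and all 22 also for GFP_bHLH103. That count is near the background, since 98% of 13059 gene models found in 10 to 65 cells did the same for GFP_bHLH97 and 93.5% for GFP_bHLH103. A likeness of at least 0.3 was reached by 7 of the 22 rows for GFP_bHLH97, against a background of 7.45% of those gene models, and by 15 of 22 for GFP_bHLH103, against 3.15%. How far UMIs shared between construct rows enter these counts was not tested. With the number of gene models detected regressed out, 0 rows remained at or above 0.3 for GFP_bHLH97 and 10 for GFP_bHLH103. With the pool-marking sum regressed out in its place, 0 and 2 did. No share of the 13059 gene models is given for these settings.

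The rows most like GFP_bHLH97 were GFP_NAC25, GFP_bHLH103 and GFP_WRKY81, with likenesses of 0.39, 0.39 and 0.38. GFP_NAC25, a construct of a NAC family factor, was read in 35 cells, and GFP_WRKY81, of a WRKY family factor, in 21. Those most like GFP_bHLH103 were GFP_EREB50, GFP_DOF25 and GFP_ZHD4, with likenesses of 0.48, 0.47 and 0.47, which belong to the ERF, DOF and zinc finger homeodomain families. GFP_CSD4 and GFP_HSF2 lay at the low end for both members, between 0.08 and 0.19. A row that belongs mainly to the other pool also shared these cells: GFP_bHLH122 had 22 UMIs in the pre-meiotic TF pool, against 343 in the bHLH pool, and all 14 pre-meiotic TF cells with it had GFP_bHLH103 and 13 had GFP_bHLH97. The control construct row, GFP_control, was found in 7 pre-meiotic TF cells, 6 with GFP_bHLH97 and 1 without, and 4 with GFP_bHLH103 and 3 without.

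**Figure D3:**
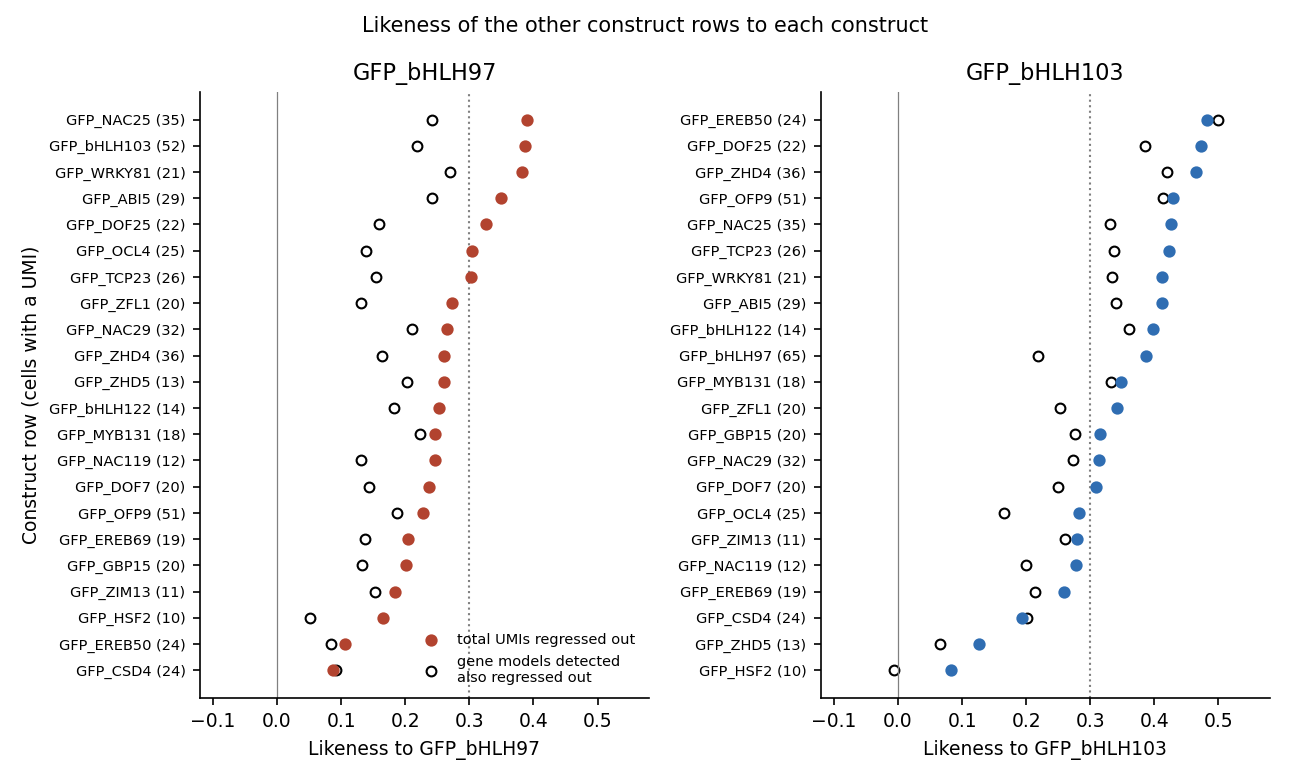
Each line is 1 of 22 other construct rows, with the number of cells in which it was read; filled points are its likeness to GFP_bHLH97 (left) or GFP_bHLH103 (right) and open points the likeness with gene models detected also regressed out. All filled points lie above 0, and 7 on the left and 15 on the right reach the dotted line at 0.3.

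Gene models were compared in the same way when at least 25% of the pool's cells had a UMI of them and their mean was 50 TPM or more, which left 1292. For GFP_bHLH97, 289 gene models (22.4%) had a likeness of at least 0.3 and 5 (0.387%) of at most -0.3, and the median was 0.19. For GFP_bHLH103, 105 (8.13%) reached 0.3 and 4 (0.31%) -0.3, and the median was 0.14. Most of this breadth went when the number of gene models detected was also regressed out: 22 models (1.7%) then reached 0.3 for GFP_bHLH97 and 27 (2.09%) for GFP_bHLH103, with medians of -0.01 and 0.02. With the pool-marking sum regressed out in its place, 43 (3.33%) and 16 (1.24%) did. The pool-marking models are among the 1292, so for them that setting regresses out a sum that holds their own level.

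**Figure D4:**
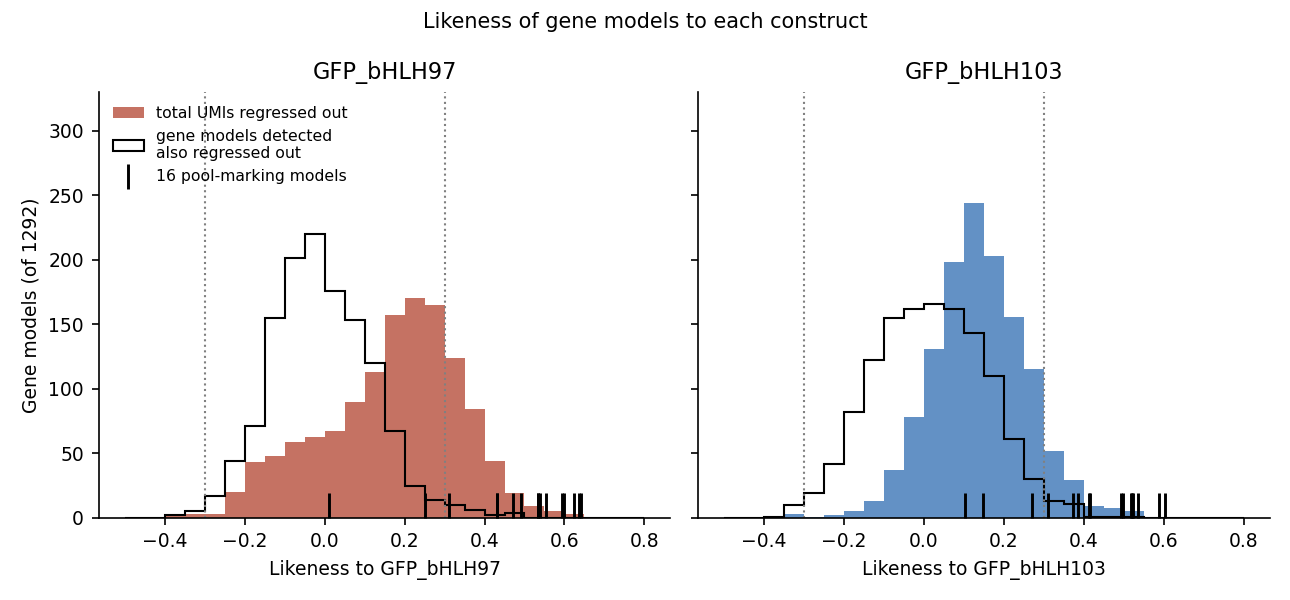
Filled histograms give the likeness of 1292 gene models to GFP_bHLH97 (left) and GFP_bHLH103 (right), and outlines the same with gene models detected also regressed out; ticks on the axis mark the 16 pool-marking models. The outlines centre near 0, while most ticks lie to the right of the dotted line at 0.3.

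Of the 10 models most like each construct, 7 for GFP_bHLH97 and 8 for GFP_bHLH103 were among those that mark the pool, that is, 16 models read in 20% or more of its cells and in a share at least 5 times lower of the bHLH cells. Of these, 14 reached 0.3 with GFP_bHLH97 (median likeness 0.53) and 13 with GFP_bHLH103 (median 0.45), and 8 of 16 still did for each with gene models detected regressed out. Several are models of factors that also have a construct row. The NAC gene nam1 (GRMZM2G393433) had 2798 UMIs in the pre-meiotic TF pool while its construct row GFP_NAC119 had 13, and the homeodomain gene ocl4 (GRMZM2G123140), an epidermal factor needed for normal anthers, had 1946 against 42 on GFP_OCL4. The LEAFY-like gene zfl1 (GRMZM2G098813), a regulator of floral identity, had 570 against 32 on GFP_ZFL1. None of nam1, ocl4 and zfl1 had a UMI in the bHLH pool. Whether UMIs on such a model came from the cell's own gene or from the introduced construct cannot be told apart here. The files pair no gene model with bHLH97 or bHLH103, so UMIs of these constructs that may have been assigned to gene models are not in the values above.

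For GFP_bHLH97 the most alike model was CSD4 (GRMZM5G895313), at 0.67, and 0.50 with gene models detected regressed out. It ran from 0 to 4197 TPM with a median of 896 TPM over the 96 cells, and averaged 1401 TPM in cells with GFP_bHLH97 and 662 TPM in cells without it. Next came the unnamed GRMZM2G120151 and zfl1, both at 0.64, GRMZM2G108865 at 0.62 and ocl4 at 0.60. zfl1 averaged 260 TPM in cells with GFP_bHLH97 and 77.6 TPM in cells without it, and the heat shock factor gene HSF2 (GRMZM2G088242, likeness 0.55) averaged 101 TPM in cells with it and 19.4 TPM in cells without. CSD4 and HSF2 also have construct rows. CSD4 had 3149 UMIs against 33 on GFP_CSD4, and HSF2 had 208 against 16 on GFP_HSF2. Whether their UMIs came from the cell's own gene or from the introduced construct cannot be told apart either. OFP16, GRMZM2G159500 and GRMZM2G036966 were also among the 10 highest. CSD4, GRMZM2G159500 and GRMZM2G181359 are not pool-marking, and the bHLH pool had them in 72, 66 and 77 cells. Over the bHLH cells CSD4 averaged 77.3 TPM and GRMZM2G159500 52.0 TPM, far below their 1162.5 and 509.8 TPM among pre-meiotic TF cells. GRMZM2G181359, unnamed, averaged 97.5 TPM in cells with GFP_bHLH97 and 22.4 TPM in cells without it. Its mean was 73.2 TPM over all 96 of these cells, but also 87.8 TPM in the bHLH pool, where GFP_bHLH97 had no UMI. Its likeness of 0.57 was 0.40 with gene models detected regressed out and 0.46 with the pool-marking sum regressed out. Over the 10 models the likeness with gene models detected regressed out ran from 0.34 to 0.50.

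For GFP_bHLH103 the most alike model was zfl1, at 0.60, which averaged 279 TPM in cells with GFP_bHLH103 and 108 TPM in cells without it. GRMZM2G036966 followed at 0.59, with 1083 TPM in cells with the construct and 430 TPM in cells without, then GRMZM2G438438 at 0.54. CSD4, nam1, OFP16 and ocl4 were all at 0.52, and nam1 averaged 1358 TPM in cells with GFP_bHLH103 and 718 TPM in cells without it. GRMZM2G120151, GRMZM2G378490 and GRMZM2G127379 completed the 10 highest. Of the 10 highest models of each construct, CSD4, zfl1, OFP16, ocl4, GRMZM2G120151 and GRMZM2G036966 were in both lists. With gene models detected regressed out, the likeness of the 10 models to GFP_bHLH103 ran from 0.36 to 0.50.

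Among the 5 lowest models of each construct, 3 were very abundant and shared by both. GRMZM5G806488 averaged 90784 TPM in cells with GFP_bHLH97 and 118002 TPM in cells without it (likeness -0.39), and 79968 TPM and 122742 TPM in cells with and without GFP_bHLH103 (-0.40). GRMZM2G028910 and GRMZM2G049211 were the others. With gene models detected regressed out none of these 3 kept a likeness of -0.3 or lower, and GRMZM2G028910 changed sign for GFP_bHLH97. The other low models were of modest level. GRMZM2G176155, at a mean of 566 TPM over the pool, had -0.39 with GFP_bHLH97 and -0.08 with GFP_bHLH103, and GRMZM2G584704, at 100.3 TPM, had -0.31 and -0.04. GRMZM2G497552, at 376 TPM, had -0.30 with GFP_bHLH97 and -0.31 with GFP_bHLH103, and GRMZM2G078465, at 59.8 TPM, had -0.12 and -0.27.

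PHAS loci gave few UMIs in these leaf cells, 333 on 22 of the 44 loci of the 21 class (227 when loci that hold the same UMIs, named below, are counted once) and 883 on 20 of the 36 loci of the 24 class in the pre-meiotic TF pool. Among the 23 construct rows found in at least 10 cells, GFP_bHLH97 had the highest likeness to the summed 21-PHAS level, at 0.50, and was the only one at or above 0.3, with GFP_TCP23 next at 0.27. GFP_bHLH97 was also highest for the 24-PHAS sum, at 0.48, followed by GFP_bHLH103 at 0.38 and GFP_ABI5 at 0.35. GFP_bHLH97 is the row read in most cells, 65 against 26 for GFP_TCP23, and rows read in few cells have many ties at 0. GFP_OFP9, read in 51 cells, had -0.006 with the 21-PHAS sum (rank 22) and 0.12 with the 24-PHAS sum (rank 13). How far the number of cells with a row bears on these ranks was not tested. GFP_bHLH103 ranked 9 of 23 for the 21-PHAS sum, at 0.16. With gene models detected regressed out, GFP_bHLH97 had 0.23 with the 21-PHAS sum, still rank 1, and 0.17 with the 24-PHAS sum, rank 3, while GFP_bHLH103 had -0.11 and 0.16.

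A UMI on any 21-PHAS locus was found in 56 of 65 cells with GFP_bHLH97 (86.2%, 75.3% to 93.5%) and in 13 of 31 without it (41.9%, 24.5% to 60.9%). For GFP_bHLH103 it was found in 43 of 52 cells with it (82.7%, 69.7% to 91.8%) and in 26 of 44 without it (59.1%, 43.2% to 73.7%). A higher share in cells with a construct is common in these cells. Of 13059 gene models found in 10 to 65 cells, 98% had one for GFP_bHLH97 and 93.5% for GFP_bHLH103. The 21-PHAS sum had a median of 118 TPM in cells with GFP_bHLH97 and 0 TPM in cells without it. Counting loci that hold the same UMIs once, the medians were 77.1 and 0 TPM, and the means over cells 92.9 and 62.1 TPM. Pooled over cells and counted once, its UMIs were 86.9 per 1000000 (75.4 to 99.5) in cells with GFP_bHLH97 and 30.9 (18.9 to 47.8) in cells without it. The groups overlapped, and the highest single value of the sum over all rows, 1144 TPM, was in protoplast 18, which had no GFP_bHLH97 UMI and only 2622 UMIs in all. From cells with no GFP_bHLH97 UMI, to those below and those at or above the median of the cells with one, the 21-PHAS UMIs, counted in that way, were 30.9, 64.0 and 122 per 1000000. After thinning to 5000 UMIs a 21-PHAS UMI was found in 13.0%, 40.6% and 71.0% of the cells of these classes. The median number of gene models detected in them was 2181, 5644 and 5489, and the median pool-marking sum was 2104, 4331 and 9029 TPM.

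Set side by side at like numbers of gene models, the share was higher in cells with GFP_bHLH97 in each tertile, with few cells and overlapping intervals. Among the 86 cells thinned to 5000 UMIs, in the tertile with fewest gene models (402 to 1203), a 21-PHAS UMI was in 6 of 16 cells with GFP_bHLH97 and in 0 of 13 without it, which allows a UMI in up to 23.1% of such cells (3 counts of the total; exact upper bound 24.7%). The 16 cells still had more gene models than the 13, with medians of 1047 and 567. In the middle tertile it was in 10 of 21 cells with GFP_bHLH97 and in 1 of 7 without it, with exact intervals of 25.7% to 70.2% and 0.361% to 57.9%. In the tertile with most gene models it was in 19 of 26 and in 2 of 3. For GFP_bHLH103 the same tertiles gave 2 of 11 cells with it against 4 of 18 without, 7 of 18 against 4 of 10, and 15 of 21 against 6 of 8.

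**Figure D5:**
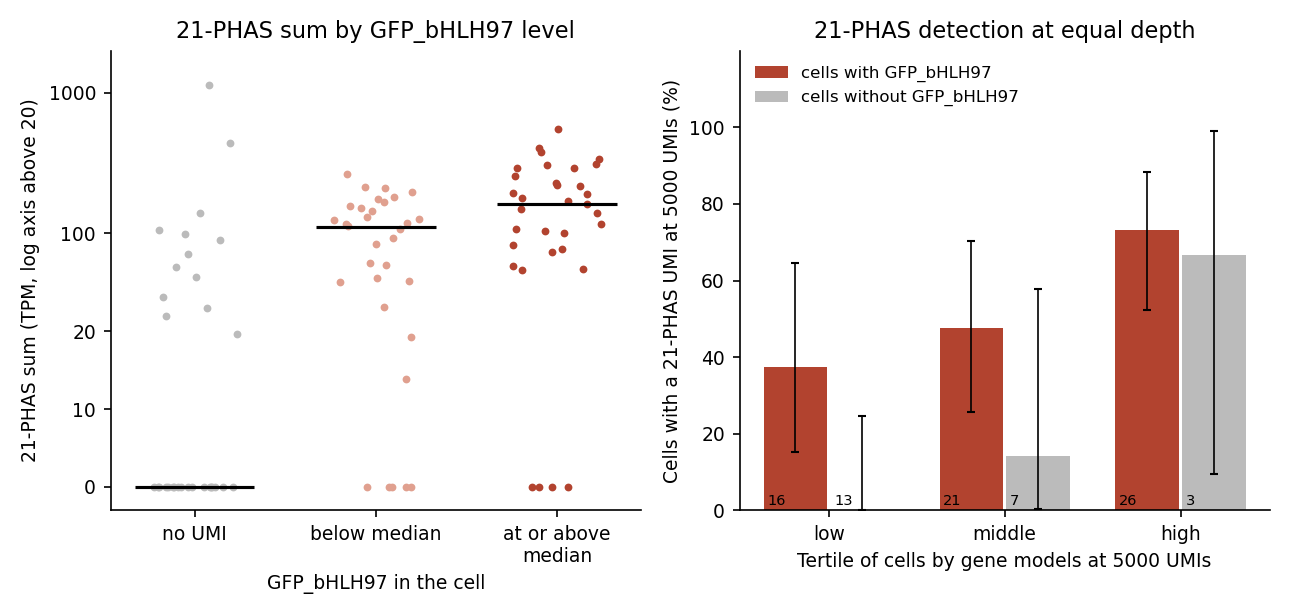
Left, the 21-PHAS sum of each cell in TPM (linear up to 20, logarithmic above) by GFP_bHLH97 level, with the median as a line, which lies at 0 in cells with no GFP_bHLH97 UMI. Right, the percent of cells with a 21-PHAS UMI at 5000 UMIs, in cells with and without GFP_bHLH97 within tertiles by gene models, with exact 95% intervals and the number of cells at the foot of each bar.

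A few loci held a large share of the PHAS UMIs. 21PHAS_NO588 averaged 40.2 TPM in cells with GFP_bHLH97 and 9.26 TPM in cells without it, and had a UMI in 43 of 65 cells with it and 6 of 31 without (likeness 0.40, and 0.18 with gene models detected regressed out). 21PHAS_NO589 held the same number of UMIs as 21PHAS_NO588 in 95 of 96 cells, and 21PHAS_NO385 and 21PHAS_NO464 were equal in all 96, so each pair carries 1 measurement and the sum counts its UMIs repeatedly. Counted once, the class had 227 UMIs, of which 21PHAS_NO588 held 41.9%, and GFP_bHLH97 a likeness to the sum of 0.48, or 0.20 with gene models detected also regressed out. 21PHAS_NO341, found in 25 cells, had a likeness of 0.11 to GFP_bHLH97 and 0.03 to GFP_bHLH103.

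In the 24 class, 24PHAS_NO166 held 56.7% of the UMIs and averaged 193 TPM in cells with GFP_bHLH97 and 118 TPM in cells without it (likeness 0.41), and 194 TPM in cells with GFP_bHLH103 and 138 TPM in cells without it (0.35). 24PHAS_NO63 had likenesses of 0.32 to GFP_bHLH97 and 0.24 to GFP_bHLH103, and 24PHAS_NO269 of 0.19 and 0.12. 24PHAS_NO156 went the other way round, with 0.09 to GFP_bHLH97 and 0.31 to GFP_bHLH103, averaging 21.6 TPM in cells with GFP_bHLH103 and 4.84 TPM in cells without it. With gene models detected regressed out all 4 were below 0.3 for both constructs. PHAS loci were also read in the bHLH pool, where GFP_bHLH97 had no UMI: 24PHAS_NO166 had 606 UMIs and 21PHAS_NO588 had 66.

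Lists of gene names, chosen with earlier results known, are given beside the share of all eligible models that reached 0.3, which was 22.4% for GFP_bHLH97 and 8.13% for GFP_bHLH103. Of 15 eligible heat shock genes, 4 reached 0.3 with GFP_bHLH97, namely HSF2, hsp22 (0.43), hsp101 (0.34) and hsp18f (0.30), and their median of 0.28 stood beside 0.19 for all eligible models. With GFP_bHLH103 only HSF2 did, and the median was 0.12 beside 0.14. HSF2 is pool-marking and has a construct row, so whether its UMIs came from the cell's own gene cannot be told. Among 5 wound and defence genes the proteinase inhibitor gene wip1 had 0.42 and 0.36 with GFP_bHLH97 and GFP_bHLH103 and the chitinase gene chiI 0.41 and 0.35. Of 10 glutathione S-transferase genes 3 reached 0.3 with GFP_bHLH97 and 0 with GFP_bHLH103, and of 7 jasmonate genes only TIFY15 did, at 0.41 and 0.39. In autophagy, with 3 genes, Atg8b did with GFP_bHLH97, at 0.39. None of 6 endoplasmic reticulum folding genes did with either, and of 9 genes of translation 1 did with GFP_bHLH103. With gene models detected regressed out the list medians lay between -0.15 and 0.11.

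Among 35 named bHLH genes, 9 of the small RNA machinery and 16 of light harvesting, none was read often enough to be compared as a list. Of the 7 bHLH genes found in at least 10 cells, 1 reached 0.3: GRMZM2G093744, a model named bHLH172, averaged 43.3 TPM in cells with GFP_bHLH97 and 13.3 TPM in cells without it, with likenesses of 0.34 to GFP_bHLH97 and 0.31 to GFP_bHLH103. Of all models found in 10 to 65 cells, 7.45% and 3.15% reached 0.3. A second model of that name, GRMZM2G017586, had 0.22 and -0.06. Of the small RNA machinery, the Dicer gene dcl1 (GRMZM2G040762), in 28 cells, had likenesses of 0.08 to GFP_bHLH97 and -0.05 to GFP_bHLH103. GRMZM2G160473, a model named after the Dicer gene dcl4, in 22 cells, had 0.06 and 0.02, and argonaute1 (GRMZM2G162525), in 15 cells, -0.01 and 0.14. The summed level of the 4 mesophyll markers had a likeness of 0.29 to GFP_bHLH97, with medians of 118 TPM in cells with it and 48.8 TPM in cells without it. Among them ppdk1 had 0.27, but its mean was lower in cells with GFP_bHLH97 (132 TPM) than without (150 TPM). The other mesophyll markers had 0.02 to 0.10. The bundle sheath marker me3 had -0.003 to GFP_bHLH97 and 0.20 to GFP_bHLH103. The epidermal gene ocl1 (GRMZM2G026643), in 37 cells, had 0.24 to GFP_bHLH97 and 0.35 to GFP_bHLH103. It averaged 31.1 TPM in cells with GFP_bHLH103 and 6.18 TPM in cells without it. The part of these markers in the results was not tested.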

How the data were processed

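Single protoplasts were read with CEL-seq2, per the labels, and the submitters' processing notes name the tools HISAT2, UMI-tools and SAMtools and the build B73 RefGen_v3, without versions. The deposited values, named TPM by the authors, were treated as a scaled signal, because the values of a cell add up to between 65502 and 10967874. Each is a UMI count divided by a cell total, with the totals of all cells recycled down the rows. Undoing this gave whole UMIs for 100% of the nonzero values (tolerance 0.001 UMI), and TPM was recomputed within each cell. Groups are the pools named in the titles, each being 1 sample, so no test was run. All cells had at least 500 gene models and were kept, and no doublet caller was run, since each sample is a labelled single protoplast.

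Likeness is defined in the report, and its threshold of 0.3 is a size and not a test. On simulated data it was reached by 96 of 100 models made to follow a construct and by 3 of 1092 others. Those others varied independently, with no trait of the cell shared between models. The simulation therefore gives no error rate for the real cells, where 22.4% and 8.13% of gene models reached 0.3. The gene models named are the 10 highest and 5 lowest eligible ones per construct, with PHAS loci in at least 25% of cells, models of factors with a construct row and members of name lists. Names came from RefSeq's gene table (assembly Zm-B73-REFERENCE-NAM-5.0), which matched 16091 IDs, of which 2267 had an informative name. The constructs, lists and rules were chosen with earlier results of these data known. Thinning used 1 random draw. Python 3.11.15, numpy 2.4.6, pandas 2.3.3, scipy 1.17.1 and matplotlib 3.10.9 were used.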

Additional observations from a re-analysis of the deposited data

How the results depend on the processing

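Mean levels of GFP_bHLH97 and GFP_bHLH103 were 125 and 91.7 TPM with the most abundant gene model left out of the totals, and 193 and 83.3 with the deposited values as they stand. Their shares of cells were 33.7% and 22.1% after thinning to 5000 UMIs, and 46.9% and 34.4% when at least 2 UMIs were asked for. The difference in co-detection was 3.09 points after thinning.

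Settings chosen after the data were seen moved most results. With gene models detected regressed out, 22 and 27 gene models reached 0.3 for GFP_bHLH97 and GFP_bHLH103, 0 other construct rows did for GFP_bHLH97, likeness to the 21-PHAS sum was 0.23 and -0.11, to the 24-PHAS sum 0.17 and 0.16, and between the constructs 0.22. With the pool-marking sum regressed out, 43 and 16 gene models and 0 and 2 construct rows reached 0.3, GFP_bHLH97 kept 0.35 with the 21-PHAS sum, likeness to the 24-PHAS sum was 0.25 and 0.13, GFP_bHLH103 had -0.085 with the 21-PHAS sum, and the constructs had 0.070 with each other. GRMZM2G028910 changed sign for GFP_bHLH97 with gene models detected (0.18) or the pool-marking sum (0.071) regressed out. With the pool-marking sum it also did so for GFP_bHLH103 (0.028), as did GRMZM2G120151 (-0.0023). GRMZM2G120151 is itself part of the pool-marking sum, so its own level was among what was regressed out. The cause of the sign changes was not tested.

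With the limits on gene models eased to 10% of cells and a mean of 20 TPM, 759 and 277 gene models reached 0.3, over more models tested. The deposited values as they stand gave 64 for GFP_bHLH103. Of the values of named gene models over the settings run on them, which do not include the deposited values as they stand, 136 kept their side of the threshold, 39 dropped below it, 1 rose past it and 4 changed sign. The setting with the pool-marking sum regressed out gave 20 of the 39 and 3 of the 4. Many of the named gene models are part of that sum.

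No paired analysis was possible because no test was run: the protoplast numbers only count cells, and each pool is 1 sample. The depth of a cell limits every share of cells and puts the smallest nonzero TPM of a shallow cell above that of a deep one.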
